A study of Mus musculus with 24 samples.

Results

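The genes described here encode partners of the large chaperones: J proteins (Dnaja, Dnajb and Dnajc genes), BAG proteins, subunits of the chaperonin ring (Tcp1 and Cct genes) and co-chaperones of HSP90. The rule for them uses gene symbols and no measured value: every probe set with a single symbol that begins with Dnaja, Dnajb or Dnajc and a number, begins with Cct and a number from 2 to 8, is one of Bag1 to Bag6, or is Tcp1, Ahsa1, Ahsa2, Stip1, Fkbp4, Ptges3, Cdc37 or St13. The rule found 86 probe sets for 68 genes, of 19935 genes in all. The tissue was liver, from adult male C57BL/6 mice, for which the labels name no transgene and no treatment. The animals had lived for 4 weeks in 12 h of light and 12 h of dim red light, and were then kept in dim red light alone. Livers were taken on the second cycle of these constant conditions at 8 circadian times, CT00 to CT21 in steps of 3 h, with 3 arrays per time and 24 in all. Each array carried RNA of a separate biological replicate, although another label speaks of 4 mice per time.

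HSP70 binds and releases unfolded stretches of protein. J proteins deliver clients to it and start its ATPase, exchange factors such as the BAG proteins reset it, and adaptors pass the client on. HSP90 acts later on kinases, steroid receptors and other clients, and the chaperonin ring folds actin and tubulin in a closed cavity. Heat shock factor 1 drives a shared set of these genes through repeats of a short element in their promoters, and the liver is a tissue in which heat shock genes are known to rise in the night of nocturnal animals.

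The promoters of 6 genes are printed because they show the range met in the results: 4 genes that followed the night wave (Stip1, Dnaja1, Fkbp4 and Cct5), a J protein gene that was not called (Dnajb6), and an endoplasmic reticulum J protein gene (Dnajc3). Each is read 5′ to 3′ on the strand of the gene, from 250 bases before to 50 bases after the start of the RefSeq transcript, in build GRCm38.p6 (of several starts, 1 with a match, otherwise the first listed). Stip1 is at chr19:7039977-7040276 on the minus strand, Dnaja1 at chr4:40722218-40722517 on the plus strand, and Fkbp4 at chr6:128438607-128438906 on the minus strand. Cct5 is at chr15:31601797-31602096 on the minus strand, Dnajb6 at chr5:29735648-29735947 on the plus strand, and Dnajc3 at chr14:118937682-118937981 on the plus strand. Capitals mark a heat shock pair in Dnaja1, Fkbp4 and Cct5, the longer element in Dnajb6, and an endoplasmic reticulum stress element in Dnajc3. The Stip1 window held none of these motifs and has no capitals.
Stip1: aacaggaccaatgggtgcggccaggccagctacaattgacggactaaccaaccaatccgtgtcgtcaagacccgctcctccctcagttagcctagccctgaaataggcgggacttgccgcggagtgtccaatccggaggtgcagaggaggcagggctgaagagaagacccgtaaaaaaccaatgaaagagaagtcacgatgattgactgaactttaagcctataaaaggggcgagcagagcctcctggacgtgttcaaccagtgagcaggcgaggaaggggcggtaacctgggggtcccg
Dnaja1: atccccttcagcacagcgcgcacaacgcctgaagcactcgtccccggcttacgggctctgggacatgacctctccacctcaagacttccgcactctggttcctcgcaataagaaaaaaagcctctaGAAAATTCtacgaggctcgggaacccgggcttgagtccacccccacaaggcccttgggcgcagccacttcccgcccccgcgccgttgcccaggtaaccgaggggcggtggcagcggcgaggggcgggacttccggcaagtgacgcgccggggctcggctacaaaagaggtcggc
Fkbp4: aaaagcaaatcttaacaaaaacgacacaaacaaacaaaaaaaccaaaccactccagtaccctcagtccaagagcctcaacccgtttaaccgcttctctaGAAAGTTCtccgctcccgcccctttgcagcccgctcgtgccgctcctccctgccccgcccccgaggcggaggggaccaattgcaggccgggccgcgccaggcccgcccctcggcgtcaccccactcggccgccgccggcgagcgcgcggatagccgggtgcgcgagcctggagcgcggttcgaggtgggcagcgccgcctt
Cct5: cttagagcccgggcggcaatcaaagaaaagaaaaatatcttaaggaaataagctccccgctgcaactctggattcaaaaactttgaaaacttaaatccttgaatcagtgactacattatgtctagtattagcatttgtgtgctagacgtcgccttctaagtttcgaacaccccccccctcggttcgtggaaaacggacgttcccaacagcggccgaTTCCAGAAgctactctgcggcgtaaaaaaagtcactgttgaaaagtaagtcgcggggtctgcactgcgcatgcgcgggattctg
Dnajb6: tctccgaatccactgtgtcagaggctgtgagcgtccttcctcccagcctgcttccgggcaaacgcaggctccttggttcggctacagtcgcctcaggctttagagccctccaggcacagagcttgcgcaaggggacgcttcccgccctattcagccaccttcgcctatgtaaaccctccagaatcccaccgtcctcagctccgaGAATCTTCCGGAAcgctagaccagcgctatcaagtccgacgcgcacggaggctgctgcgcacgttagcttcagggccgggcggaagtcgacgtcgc
Dnajc3: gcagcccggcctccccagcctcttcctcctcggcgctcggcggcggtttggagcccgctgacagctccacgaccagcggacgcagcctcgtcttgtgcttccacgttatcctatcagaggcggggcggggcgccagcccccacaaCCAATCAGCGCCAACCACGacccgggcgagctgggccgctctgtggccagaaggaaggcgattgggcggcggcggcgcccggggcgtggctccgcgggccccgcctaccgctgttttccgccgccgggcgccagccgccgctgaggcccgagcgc

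Motifs were searched on both strands. The full heat shock element was taken as 3 alternating units, GAANNTTCNNGAA or TTCNNGAANNTTC, and the shorter forms as the pairs GAANNTTC and TTCNNGAA, which lie inside the full element. Of the 68 genes, 57 had a promoter in the RefSeq table, 14 of them among the 15 genes that followed the wave. Counts are of genes, and a gene with several promoters was counted once. The full element stood in a promoter of 0 of these 14 genes and of 1 of the 43 others, Dnajb6, against 0.662% of all 27025 genes in the table. It stood in a promoter of 3 of the 7 heat shock genes of the wave that had a promoter in the table. The pair GAANNTTC was present in 4 of the 14 (Bag3, Dnaja1, Dnaja4 and Fkbp4) and in 5 of the 43, against 9.04% of all genes. The pair TTCNNGAA was present in 1 of the 14 (Cct5) and in 5 of the 43, against 9.60% of all genes. The endoplasmic reticulum stress element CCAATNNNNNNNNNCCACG was found in Dnajc3 only among the 57, against 0.137% of all genes.

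All values below are log2 values relative to the median of the same probe set over the 24 arrays, averaged over the probe sets of a gene, so they show change over the cycle and not the level of a gene. Folds hold if the deposited logarithm is of base 2. Array medians lay between -0.019 and 0.015, and the arrays that differed most from the others of their time were CT15 replicates 1 and 2, CT09 replicate 3 and CT18 replicate 3. Brightness is known only as an upper or a lower class, read from the rounding steps of the values. The upper class held 6 of 6 hepatocyte markers, 2 of 5 endothelial, 1 of 5 Kupffer cell, 1 of 5 stellate cell and 1 of 2 red blood cell markers, and 0 of 4 bile duct, 0 of 4 lymphocyte, 0 of 5 muscle and 0 of 5 testis markers. Over the marker lists of 9 cell types no marker (0) was called higher at night, against 3.92% of all genes. Called lower was 1, against 5.19% of all genes: Pdgfrb of stellate cells, with a night minus day difference of -0.21 ± 0.036 (adjusted p = 0.000556, limma). The lists hold 2 to 6 genes each, too few for a lack of calls to show a constant make-up of cells. In the 24 h fit 3 markers were called, against 13.8% of all genes. All were outside the wave window: Pdgfrb at 2.71 ± 0.41 h, Sox9 of bile ducts at 22.7 ± 0.67 h (adjusted p = 0.000687) and the hepatocyte gene Cyp2e1 at 10.99 ± 0.82 h (adjusted p = 0.00565). The 8 times differed for Pdgfrb, Sox9 and the endothelial Lyve1, against 10.9% of all genes. The night minus day difference of Lyve1 was 0.24 ± 0.08 (adjusted p = 0.0745). The part of these markers in the results below was not tested. In whole liver, fewer cells of a type and less RNA per cell cannot be told apart.

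The night wave was taken as the mean of 9 heat shock genes that are not in the set: Hsp90aa1, Hspa1a, Hspa4, Hspa4l, Hspa8, Hspb1, Hspd1, Hspe1 and Hsph1. These were chosen with earlier results of these data known, so that the night rise of their mean is a description. Hspa1a has a near-identical copy, Hspa1b, whose RNA the probes may also bind. Hspa1b and Hsp90ab1 were listed for the wave as well but were not among the genes tested. The score was 0.11, 0.0028 and -0.045 at CT00, -0.12, -0.037 and -0.092 at CT03, -0.30, -0.22 and -0.23 at CT06, and -0.21, -0.26 and -0.23 at CT09. Later in the cycle the values were -0.19, 0.052 and -0.21 at CT12, 0.47, 0.52 and 0.43 at CT15, 0.36, 0.35 and 0.50 at CT18, and 0.15, 0.13 and 0.11 at CT21. The 9 arrays of CT15, CT18 and CT21 lay between 0.11 and 0.52, all above the 9 arrays of CT03, CT06 and CT09 at -0.30 to -0.037. The fitted peak was at 18.01 h with an amplitude of 0.33, a 1.57-fold range from trough to peak. Its genes had different fitted peaks: Hspa1a peaked at 15.5 ± 0.60 h, Hsph1 at 17.1 ± 0.56 h and Hspb1 at 20.1 ± 0.53 h, Hspa8 lay just outside the 3 h window at 14.8 ± 0.78 h, and Hspa4 was not called (adjusted p = 0.775).

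A gene was said to follow the wave when a cosine of period 24 h was called (limma moderated F, Benjamini-Hochberg over all 19935 genes, adjusted p under 0.05) and its fitted peak fell within 3 h of 18.01 h. By this rule 15 of the 68 co-chaperone genes followed the wave, against 2.76% of all genes. In total 18 of 68 were called in the 24 h fit, against 13.8% of all genes, and the other 3 peaked elsewhere, against 11.1% of all genes. HSP90 co-chaperones made up 4 of the 15, J proteins 6, chaperonin subunits 3, and BAG and adaptor genes 2. The remaining 50 genes missed the 24 h call, though 2 of them varied over the 8 times. Amplitudes of the 15 ran from 0.086 in St13 to 0.46 in Dnajb1, with a median of 0.20. Over all 68 genes the median amplitude was 0.080, against 0.046 over all genes tested. A probe set of the upper brightness class was present for 10 of the 15 followers. The same held for 14 of the 48 genes called neither in the 24 h fit nor over the 8 times. Tcp1 lay just inside the window, 2.98 h before the wave peak, and Dnajb4 just outside it, 3.09 h before. St13 had the weakest call of the 15 (adjusted p = 0.0434), and Cct7 came closest to a call among the rest (adjusted p = 0.0584).

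**Figure D1:**
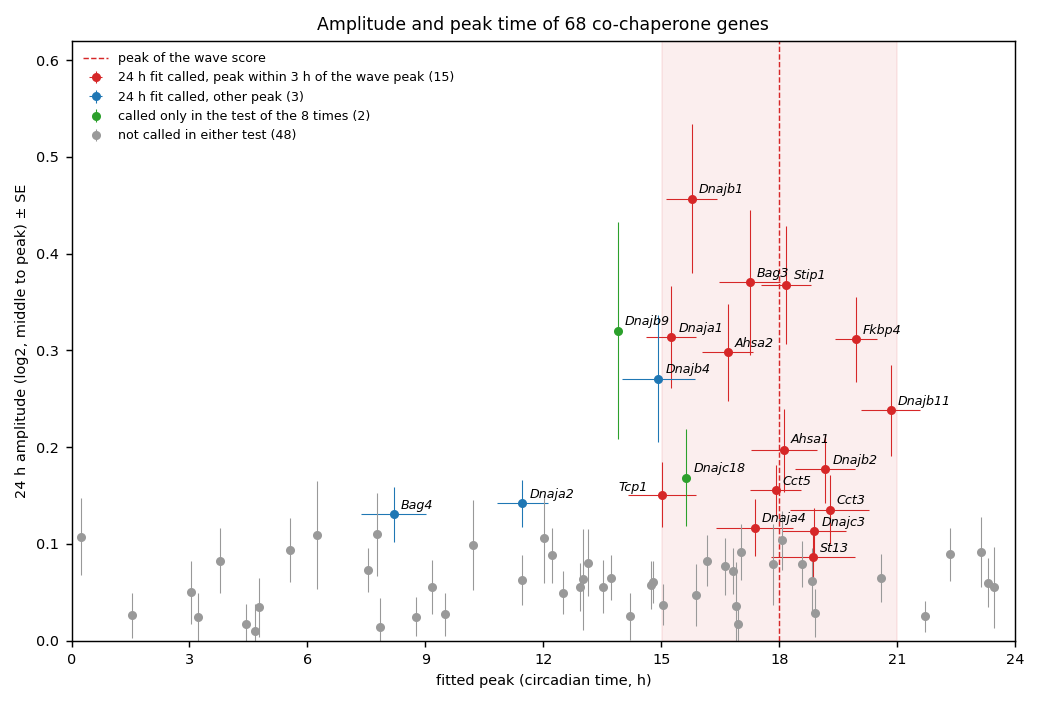
Fitted 24 h amplitude (log2, middle to peak) against fitted peak time in circadian hours for the 68 co-chaperone genes, with standard errors on both axes for called genes and on the amplitude for the others. The 15 genes that followed the wave (red) lie in the shaded window around 18.01 h, with Dnajb1 highest at 0.46, while Bag4, Dnaja2 and Dnajb4 (blue) were called with earlier peaks.

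Night and day were also compared directly. At CT15, CT18 and CT21 together, 19 of 68 were higher than at CT03, CT06 and CT09 (9 arrays against 9, limma contrast), against 3.92% of all genes, and 2 were lower, Bag4 and Dnajc4, against 5.19% of all genes. All 15 genes that followed the wave were among the 19, with Dnajb4, Cct7, Dnajc18 and Dnajc25. The night arrays lay wholly above the day arrays in 1 of 68 genes, Cct5, against 0.206% of all genes, and wholly below in 0, against 0.291%. The group mean was highest at CT15 in 27 of the 68 genes (39.7%, against 12.8% of all genes) and lowest at CT09 in 20 (29.4%, against 13.0%). A second low time was CT21, itself a night time of the contrast: the mean was lowest there in 17 genes (25%, against 14% of all genes), Dnaja1 and Tcp1 among them.

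**Figure D2:**
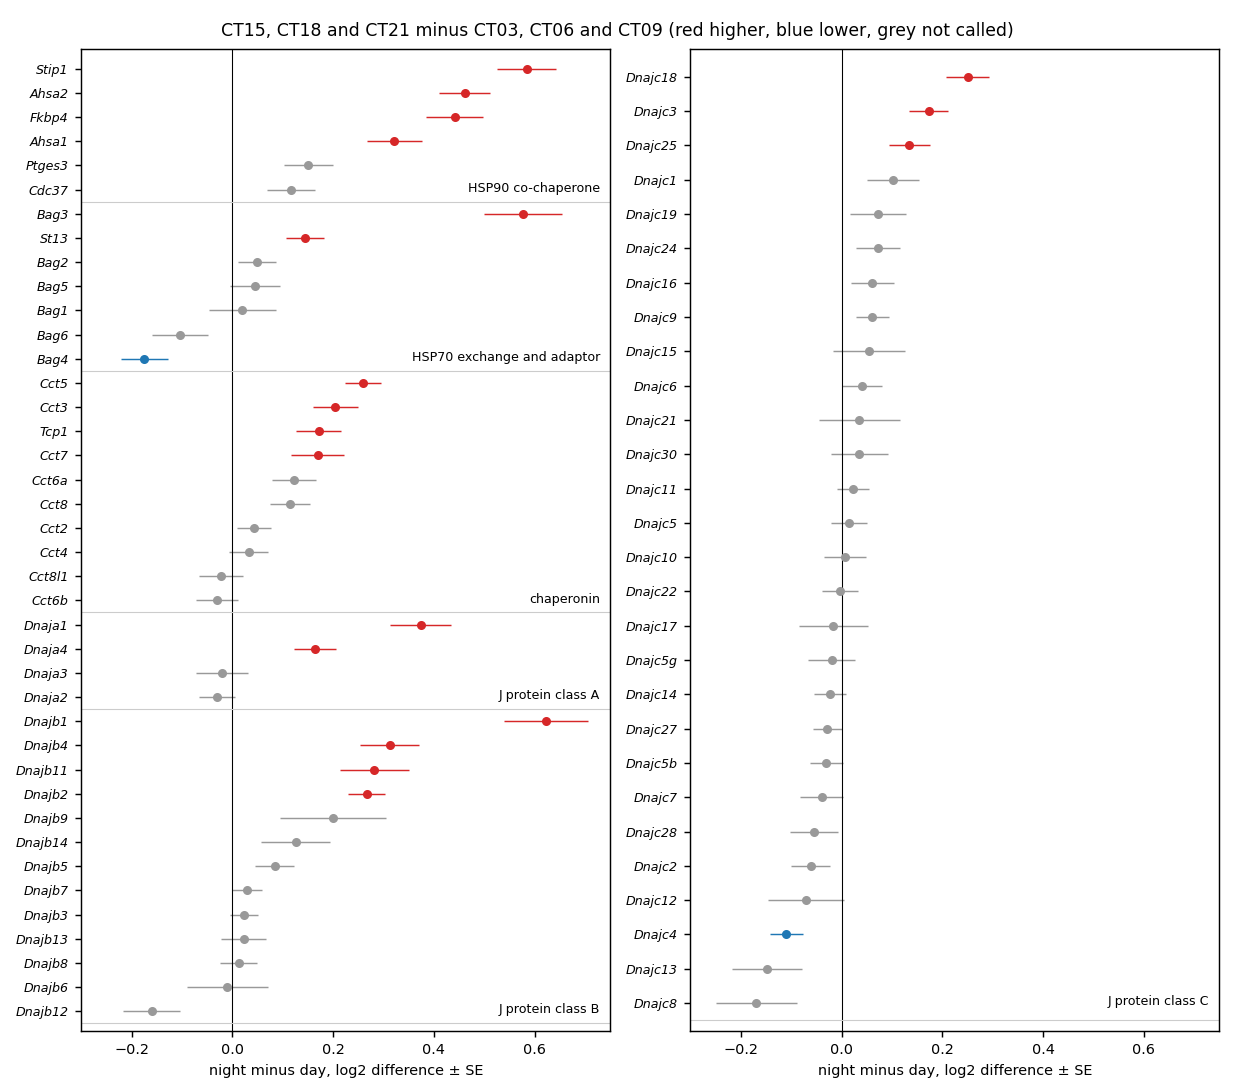
Difference between the mean of CT15, CT18 and CT21 and the mean of CT03, CT06 and CT09 (log2, points) with its standard error (lines) for each of the 68 genes, grouped by role. Red points are the 19 genes called higher, blue the 2 called lower, and grey the rest. Most Dnajc genes lie close to 0 while 4 of 6 HSP90 co-chaperones are red. These groups also differ in brightness (an upper-class probe set in 5 of 28 and in 5 of 6), and its part was not tested.

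Of the 6 HSP90 co-chaperones, 4 followed the wave, against 2.76% of all genes. The night minus day difference was above 0 in all 6, and in 9802 of all 19935 genes. Stip1, which holds HSP70 and HSP90 together while a client passes between them, had its peak within 0.18 h of the wave. Stip1 stood at -0.10, -0.14 and -0.063 at CT00, -0.035, 0.066 and 0.049 at CT03, -0.33, -0.30 and -0.20 at CT06, and -0.45, -0.50 and -0.28 at CT09. It then stood at -0.37, 0.11 and -0.26 at CT12, 0.34, 0.66 and 0.53 at CT15, 0.48, 0.36 and 0.68 at CT18, and 0.035, 0.13 and 0.044 at CT21. CT15 and CT18 were above all other arrays, and CT09 was lowest on average. Its amplitude was 0.37 ± 0.061 (log2, ± SE) with a peak at 18.2 ± 0.64 h, a 1.66-fold range (adjusted p = 0.000393), and its night minus day difference was 0.58 ± 0.058 (adjusted p = 1.58e-06). Ahsa1 stimulates the ATPase of HSP90, and Ahsa2 is its close relative. For Ahsa2 the arrays read 0.013, -0.013 and -0.049 at CT00, -0.15, 0.074 and -0.14 at CT03, -0.21, -0.062 and -0.22 at CT06, and -0.27, -0.33 and -0.17 at CT09. From CT12 on they read 0.11, 0.072 and 0.063 at CT12, 0.51, 0.67 and 0.58 at CT15, 0.19, 0.19 and 0.60 at CT18, and 0.048, -0.044 and -0.072 at CT21. CT15 was highest and CT18 spread widely, with replicate 3 far above the other two. Values of Ahsa1 were 0.059, 0.041 and -0.17 at CT00, 0.0083, 0.068 and -0.23 at CT03, -0.044, -0.0083 and -0.19 at CT06, and -0.057, -0.22 and -0.38 at CT09. They went on with -0.048, -0.049 and -0.30 at CT12, 0.35, 0.25 and 0.34 at CT15, 0.30, 0.18 and 0.35 at CT18, and 0.13, 0.025 and -0.079 at CT21. Here, too, CT15 and CT18 stood above all other arrays. Ahsa2 had an amplitude of 0.30 ± 0.05 and a peak at 16.7 ± 0.64 h (adjusted p = 0.000446), Ahsa1 one of 0.20 ± 0.043 and a peak at 18.1 ± 0.83 h (adjusted p = 0.00659).

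Fkbp4, a prolyl isomerase that joins HSP90 on steroid receptors, had the latest fitted peak of the 4, a difference that was not tested. In single arrays Fkbp4 had 0.11, -0.00073 and -0.12 at CT00, 0.00073, 0.065 and -0.17 at CT03, -0.24, -0.066 and -0.35 at CT06, and -0.32, -0.40 and -0.56 at CT09. Over the second part of the cycle it had -0.30, -0.21 and -0.53 at CT12, 0.22, 0.19 and 0.13 at CT15, 0.40, 0.19 and 0.31 at CT18, and 0.33, 0.007 and 0.14 at CT21. CT09 and CT12 were low in all 6 arrays, where Ahsa2 had already come back at CT12, and CT18 was highest. Its amplitude was 0.31 ± 0.044 with a peak at 19.9 ± 0.54 h, a 1.54-fold range and the smallest adjusted p of the 68 in the 24 h fit (5.38e-05). Ptges3, which locks HSP90 in its closed state, and Cdc37, which brings protein kinases to HSP90, missed the call. Their amplitudes were 0.092 ± 0.029 and 0.077 ± 0.029, with peaks at 17.03 ± 1.22 h and 16.6 ± 1.46 h (adjusted p = 0.0949 and 0.205). Ptges3 rests on 3 probe sets with similar amplitudes, 0.096, 0.081 and 0.10, and similar peaks. Taken alone, 2 of them were called, at adjusted p of 0.0315 and 0.0316, and 1 with a wider standard error was not (0.503).

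**Figure D3:**
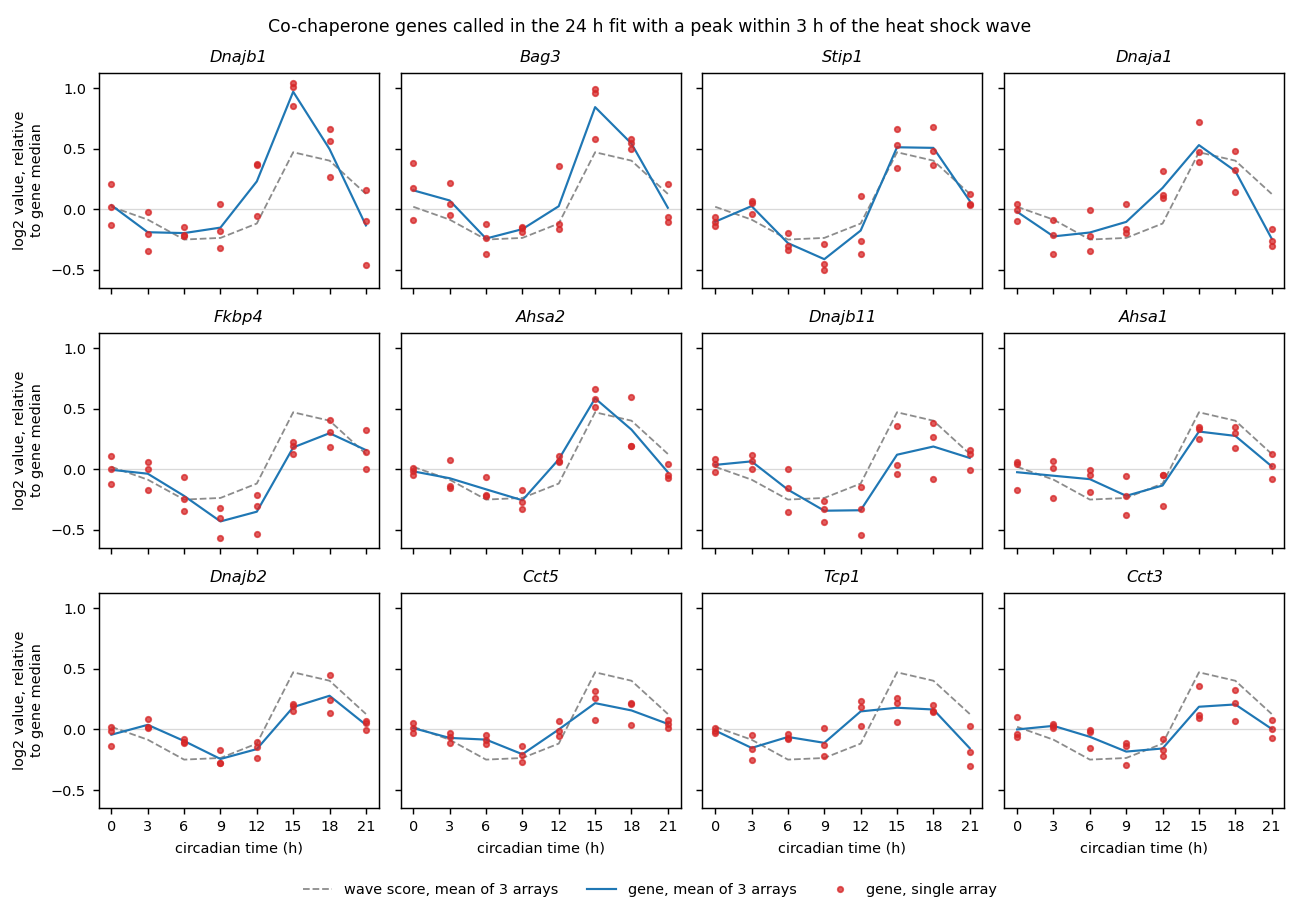
Log2 value relative to the gene's median against circadian time (h) for the 12 genes of largest amplitude among those that followed the wave; red points are single arrays, the blue line joins the means of 3 arrays, and the dashed line is the wave score. Most are high at CT15 and CT18 and low at CT06 or CT09, Dnajb1 and Dnaja1 are back near or below 0 at CT21, and Fkbp4 and Dnajb11 are still low at CT12.

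Of the 7 exchange factors and adaptors of HSP70, Bag3 and St13 followed the wave, against 2.76% of all genes. Bag3, an exchange factor that also steers clients to selective autophagy, had the second largest amplitude of the set. Log2 values of Bag3 were 0.38, 0.18 and -0.085 at CT00, 0.22, 0.045 and -0.045 at CT03, -0.12, -0.24 and -0.37 at CT06, and -0.19, -0.15 and -0.15 at CT09. Those of the subjective night were -0.12, 0.36 and -0.16 at CT12, 0.99, 0.96 and 0.58 at CT15, 0.50, 0.55 and 0.58 at CT18, and 0.21, -0.061 and -0.11 at CT21. CT15 and CT18 lay above all other arrays, from 0.50 upwards, and the spread at CT00 and CT12 was wide. The amplitude was 0.37 ± 0.075 with a peak at 17.3 ± 0.77 h, a 1.67-fold range (adjusted p = 0.00324), and the night minus day difference was 0.58 ± 0.077 (adjusted p = 5.85e-05). St13, which slows the release of ADP from HSP70, had the smallest amplitude of the 15. Its night arrays lay between -0.038 and 0.21 (median 0.068), against -0.23 to 0.0027 (median -0.058) by day, with an amplitude of 0.086 ± 0.024 and a peak at 18.9 ± 1.07 h. That 24 h call was lost in 17 of the 24 fits that left out 1 array, at adjusted p of 0.0503 to 0.0911.

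Bag4, known as a silencer of death receptors, ran against the wave. Bag4 gave -0.043, -0.18 and -0.0033 at CT00, 0.077, -0.057 and 0.046 at CT03, 0.12, 0.25 and 0.066 at CT06, and 0.27, 0.039 and 0.054 at CT09. Later in the cycle the values were 0.30, -0.00089 and 0.18 at CT12, -0.079, -0.12 and -0.071 at CT15, 0.00089, -0.16 and -0.096 at CT18, and 0.039, -0.16 and -0.056 at CT21. Values were above 0 in most arrays from CT06 to CT12 and near or below 0 from CT15 to CT00, with some overlap. It peaked at 8.20 ± 0.83 h with an amplitude of 0.13 ± 0.028 (adjusted p = 0.00626), and its night minus day difference was -0.17 ± 0.046 (adjusted p = 0.0187). Bag6, which guards newly made membrane proteins in the cytosol, was not called. Bag6 stood at -0.00098, 0.07 and -0.10 at CT00, 0.25, 0.053 and 0.045 at CT03, 0.15, 0.25 and 0.083 at CT06, and 0.039, 0.00098 and -0.095 at CT09. It then stood at -0.16, -0.033 and -0.046 at CT12, 0.14, -0.16 and -0.054 at CT15, 0.21, -0.18 and -0.12 at CT18, and 0.15, -0.086 and -0.061 at CT21. Replicate 1 was the highest of its time from CT15 to CT21, and night and day arrays overlapped. Its night minus day difference was -0.10 ± 0.055 (adjusted p = 0.322). Bag1, Bag2 and Bag5, the other exchange factors, had amplitudes of 0.055, 0.065 and 0.081. In the 24 h fit 0 of these 3 were called (adjusted p from 0.164 to 0.747), against 13.8% of all genes, so this is not particular to them.

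Of the J proteins, 2 of 4 genes of class A, 3 of 13 of class B and 1 of 28 of class C followed the wave, against 2.76% of all genes. The difference between classes was not tested. A probe set of the upper brightness class was present for 3 of 4 genes of class A, 3 of 13 of class B and 5 of 28 of class C. For HSP90 co-chaperones this held in 5 of 6. The part of brightness in these counts was not tested. In class A, which resembles the bacterial DnaJ most closely, Dnaja1 was above 0 already at CT12. For Dnaja1 the arrays read -0.0035, -0.098 and 0.041 at CT00, -0.37, -0.09 and -0.21 at CT03, -0.22, -0.35 and -0.007 at CT06, and -0.20, -0.16 and 0.044 at CT09. From CT12 on they read 0.097, 0.32 and 0.12 at CT12, 0.39, 0.72 and 0.47 at CT15, 0.14, 0.33 and 0.48 at CT18, and -0.16, -0.26 and -0.30 at CT21. All 9 arrays from CT12 to CT18 were above 0, and all 3 of CT21 were below it, in the range of the day arrays. The amplitude was 0.31 ± 0.053 with a peak at 15.2 ± 0.64 h, a 1.54-fold range (adjusted p = 0.000463). Its 2 probe sets gave peaks of 15.49 and 14.99 h, and the gene left the window without CT00 replicate 3. Dnaja2, its close cytosolic relative, was called with another course. Values of Dnaja2 were -0.0082, -0.0094 and -0.048 at CT00, -0.097, -0.053 and -0.19 at CT03, 0.011, -0.11 and 0.13 at CT06, and 0.097, 0.14 and 0.10 at CT09. They went on with 0.091, 0.26 and 0.31 at CT12, 0.044, 0.14 and 0.08 at CT15, 0.0082, -0.098 and -0.012 at CT18, and -0.10, -0.13 and -0.18 at CT21. All 9 arrays of CT09, CT12 and CT15 were above 0, with CT12 highest on average, and all 6 of CT03 and CT21 were below it. It peaked at 11.5 ± 0.65 h with an amplitude of 0.14 ± 0.024 (adjusted p = 0.000511), and its night minus day difference was -0.031 ± 0.035 (adjusted p = 0.748). Dnaja4 followed the wave with a small amplitude of 0.12 ± 0.03 and a peak at 17.4 ± 0.98 h (adjusted p = 0.0243). Its call was lost without any of 5 arrays, with adjusted p of 0.0648 without CT06 replicate 2, 0.06 without CT06 replicate 3, 0.0504 without CT15 replicate 3, 0.0592 without CT18 replicate 1, 0.063 without CT18 replicate 2. Dnaja3, which works in mitochondria, showed an amplitude of 0.014 ± 0.03 (adjusted p = 0.97).

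Class B held the member with the largest swing, Dnajb1, the main heat-inducible J protein of the cytosol. In single arrays Dnajb1 had 0.21, 0.019 and -0.13 at CT00, -0.20, -0.019 and -0.35 at CT03, -0.15, -0.22 and -0.21 at CT06, and -0.18, 0.047 and -0.32 at CT09. Over the second part of the cycle it had 0.38, 0.37 and -0.052 at CT12, 1.04, 1.01 and 0.86 at CT15, 0.26, 0.57 and 0.66 at CT18, and 0.16, -0.46 and -0.10 at CT21. CT15 lay above all other times in each array, CT12 was already up in 2 of 3, and CT21 overlapped the day arrays. Dnajb1 had an amplitude of 0.46 ± 0.077, a peak at 15.8 ± 0.64 h and a 1.88-fold range (adjusted p = 0.000473), with a night minus day difference of 0.62 ± 0.083 (adjusted p = 5.77e-05). Its peak lay 2.23 h before that of the wave, so a 2 h window left it out. It also left the window with the wave from Hsp90aa1 alone (wave peak 18.86 h) and without the 4 farthest arrays (wave peak 18.53 h). The 24 h call was kept in these settings. Dnajb4, a cytosolic relative of Dnajb1, was called with a peak just outside the window. Log2 values of Dnajb4 were 0.20, 0.092 and -0.058 at CT00, -0.11, -0.07 and -0.30 at CT03, -0.18, -0.21 and -0.11 at CT06, and -0.19, -0.21 and 0.016 at CT09. Those of the subjective night were 0.099, 0.22 and 0.18 at CT12, 0.62, 0.68 and 0.64 at CT15, 0.0078, 0.084 and 0.30 at CT18, and -0.0078, -0.46 and -0.43 at CT21. CT15 stood clear of every other array, and 2 of 3 arrays of CT21 were the lowest of the cycle. Its peak was at 14.9 ± 0.93 h with an amplitude of 0.27 ± 0.066 (adjusted p = 0.0164), and its night minus day difference was 0.31 ± 0.059 (adjusted p = 0.00158). Dnajb2, which binds ubiquitin-marked clients and is best known from neurons, followed the wave. Dnajb2 gave 0.018, -0.014 and -0.13 at CT00, 0.089, 0.016 and 0.0083 at CT03, -0.11, -0.077 and -0.10 at CT06, and -0.17, -0.28 and -0.28 at CT09. Later in the cycle the values were -0.23, -0.11 and -0.15 at CT12, 0.15, 0.21 and 0.19 at CT15, 0.14, 0.25 and 0.45 at CT18, and 0.072, 0.05 and -0.0083 at CT21. CT15 and CT18 were above all others in each of 6 arrays, and CT09 was lowest on average. The amplitude was 0.18 ± 0.036 with a peak at 19.2 ± 0.77 h (adjusted p = 0.00305).

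Dnajb12, a J protein of the endoplasmic reticulum membrane that faces the cytosol, was not called. Dnajb12 stood at -0.034, 0.048 and -0.11 at CT00, 0.13, 0.094 and -0.038 at CT03, 0.10, 0.19 and -0.085 at CT06, and 0.19, 0.13 and -0.014 at CT09. It then stood at 0.065, -0.13 and -0.088 at CT12, 0.014, -0.34 and -0.093 at CT15, 0.031, 0.023 and -0.17 at CT18, and 0.088, -0.22 and -0.065 at CT21. Replicate 2 varied most, from 0.19 at CT06 to -0.34 at CT15, and the night and day arrays overlapped. Its night minus day difference was -0.16 ± 0.056 (adjusted p = 0.0839). Dnajb6, which keeps aggregating proteins soluble and whose promoter above holds the full heat shock element, had an amplitude of 0.11 ± 0.046 with a peak at 12.01 ± 1.68 h (adjusted p = 0.318). The other 6 class B genes, Dnajb3, Dnajb5, Dnajb7, Dnajb8, Dnajb13 and Dnajb14, were called neither in the 24 h fit, over the 8 times nor between night and day, and had amplitudes of 0.017 to 0.079. Over all genes these tests called 13.8%, 10.9%, and 3.92% higher or 5.19% lower at night. A lack of calls in so few genes is not particular to them.

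J proteins that serve HSP70 inside the endoplasmic reticulum (Dnajb9, Dnajb11, Dnajc1, Dnajc3 and Dnajc10) gave 2 of 5 in the window, against 2.76% of all genes. Dnajb11, which binds secretory proteins together with the reticulum's own HSP70, was the latest gene of the 15. For Dnajb11 the arrays read 0.086, 0.045 and -0.019 at CT00, 0.12, 0.071 and 0.0046 at CT03, -0.15, 0.0015 and -0.35 at CT06, and -0.26, -0.33 and -0.44 at CT09. From CT12 on they read -0.32, -0.15 and -0.54 at CT12, 0.037, 0.36 and -0.036 at CT15, 0.26, -0.077 and 0.38 at CT18, and 0.16, 0.12 and -0.0015 at CT21. CT09 and CT12 were low in all 6 arrays, and the 3 arrays of CT15 and of CT18 were spread widely, with 1 far from the other 2 at each time. It had an amplitude of 0.24 ± 0.047 and a peak at 20.8 ± 0.75 h (adjusted p = 0.0026), and it left the window without CT15 replicate 2 or CT18 replicate 3. Dnajc3, a restraint on the unfolded protein response whose promoter is printed above, had night arrays between 0.00096 and 0.25 (median 0.064), against -0.22 to 0.048 (median -0.083) by day. Its amplitude was 0.11 ± 0.024 with a peak at 18.9 ± 0.82 h (adjusted p = 0.00547). The test of the 8 times did not call Dnajc3 (adjusted p = 0.0521), and it no longer followed the wave without the arrays of CT06. Its 2 probe sets are near duplicates, with values that differed by at most 0.00053.

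Dnajb9, which marks misfolded proteins of the reticulum for removal, had 1 of the widest swings of the set but no 24 h call. Values of Dnajb9 were 0.32, 0.19 and 0.05 at CT00, -0.025, -0.22 and -0.046 at CT03, -0.16, -0.76 and -0.72 at CT06, and -0.074, 0.13 and 0.24 at CT09. They went on with 0.11, 0.58 and -0.062 at CT12, 0.55, 1.04 and 0.41 at CT15, 0.025, -0.10 and 0.34 at CT18, and -0.50, -0.71 and -0.88 at CT21. CT15 was high, and CT06 and CT21 were both low in most arrays, so that the course had 2 low times. The 8 times differed (adjusted p = 0.000396), while the 24 h amplitude of 0.32 ± 0.11 missed the call (adjusted p = 0.145). Dnajc10, a disulfide reductase with a J domain, moved little. In single arrays Dnajc10 had 0.027, -0.11 and -0.034 at CT00, -0.079, 0.065 and 0.003 at CT03, -0.046, -0.10 and 0.13 at CT06, and -0.10, -0.003 and 0.04 at CT09. Over the second part of the cycle it had 0.061, 0.20 and 0.10 at CT12, 0.045, 0.23 and 0.14 at CT15, -0.0066, -0.12 and 0.15 at CT18, and -0.12, -0.16 and -0.19 at CT21. CT12 and CT15 were above 0 in every array and CT21 below 0 in every array, but neither the 24 h fit (adjusted p = 0.0995) nor the test of the 8 times (0.113) called it. Dnajc1, a membrane J protein that also binds ribosomes, had an amplitude of 0.061 ± 0.034 (adjusted p = 0.531).

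Members of class C share only the J domain and often serve 1 fixed client or site. Dnajc3 was the 1 gene of 28 called in the 24 h fit, against 13.8% of all genes, and the 1 that followed the wave, a share near the 2.76% of all genes. Higher at night were 3 genes (Dnajc3, Dnajc18 and Dnajc25), against 3.92% of all genes, and 1 was lower (Dnajc4), against 5.19%. In class C the median night minus day difference was 0.011, against -0.0011 over all genes tested. Dnajc18, a J protein of the endoplasmic reticulum membrane, was highest at CT15. Log2 values of Dnajc18 were -0.002, -0.015 and 0.094 at CT00, -0.17, 0.049 and -0.017 at CT03, -0.10, 0.018 and -0.012 at CT06, and -0.082, -0.27 and -0.26 at CT09. Those of the subjective night were 0.078, 0.24 and 0.064 at CT12, 0.38, 0.58 and 0.56 at CT15, 0.002, 0.068 and -0.0021 at CT18, and -0.17, 0.034 and -0.046 at CT21. Every array of CT15 was above all others, and CT18 was already back near 0. The 8 times differed (adjusted p = 4.94e-05) and the night minus day difference was 0.25 ± 0.042 (adjusted p = 0.000605), while the 24 h fit fell short (adjusted p = 0.0621). Dnajc25 had a night minus day difference of 0.13 ± 0.041 (adjusted p = 0.0407), a call lost in 12 of 24 fits that left out 1 array, at adjusted p of 0.0517 to 0.0914.

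Dnajc4 was called lower at night than by day but was not called in the 24 h fit (adjusted p = 0.0874). Dnajc4 gave -0.067, -0.11 and -0.072 at CT00, 0.18, -0.02 and 0.14 at CT03, 0.098, 0.12 and 0.13 at CT06, and 0.0097, 0.071 and -0.073 at CT09. Later in the cycle the values were -0.063, 0.13 and -0.0013 at CT12, 0.0013, -0.026 and 0.021 at CT15, 0.016, -0.051 and 0.023 at CT18, and -0.13, -0.054 and -0.14 at CT21. CT06 was above 0 in all 3 arrays and CT21 and CT00 below 0 in all 6, while CT15 and CT18, where the wave was highest, lay near 0. Its night minus day difference was -0.11 ± 0.032 (adjusted p = 0.0356), a call lost in 10 of 24 fits that left out 1 array, at adjusted p of 0.0585 to 0.0841. Dnajc2 sits on the ribosome and hands nascent chains to HSP70. Dnajc2 stood at 0.11, 0.045 and 0.014 at CT00, 0.033, 0.028 and -0.037 at CT03, -0.021, -0.0067 and -0.032 at CT06, and -0.052, 0.081 and 0.0047 at CT09. It then stood at 0.019, 0.082 and 0.019 at CT12, 0.12, 0.19 and -0.083 at CT15, -0.0047, -0.22 and -0.034 at CT18, and -0.096, -0.18 and -0.25 at CT21. CT21 was below 0 in all 3 arrays, and the arrays of CT15 and CT18 scattered around 0. It was not called (adjusted p = 0.451). Dnajc11 belongs to the inner membrane organisation of mitochondria. For Dnajc11 the arrays read 0.086, 0.10 and -0.031 at CT00, 0.045, -0.11 and -0.071 at CT03, -0.031, -0.027 and -0.022 at CT06, and 0.015, -0.12 and -0.015 at CT09. From CT12 on they read 0.13, 0.13 and 0.064 at CT12, 0.045, 0.18 and 0.044 at CT15, 0.046, -0.079 and 0.016 at CT18, and -0.08, -0.18 and -0.12 at CT21. CT12 and CT15 lay above 0 and CT21 below, and the 8 times came close to a call (adjusted p = 0.0586).

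**Figure D4:**
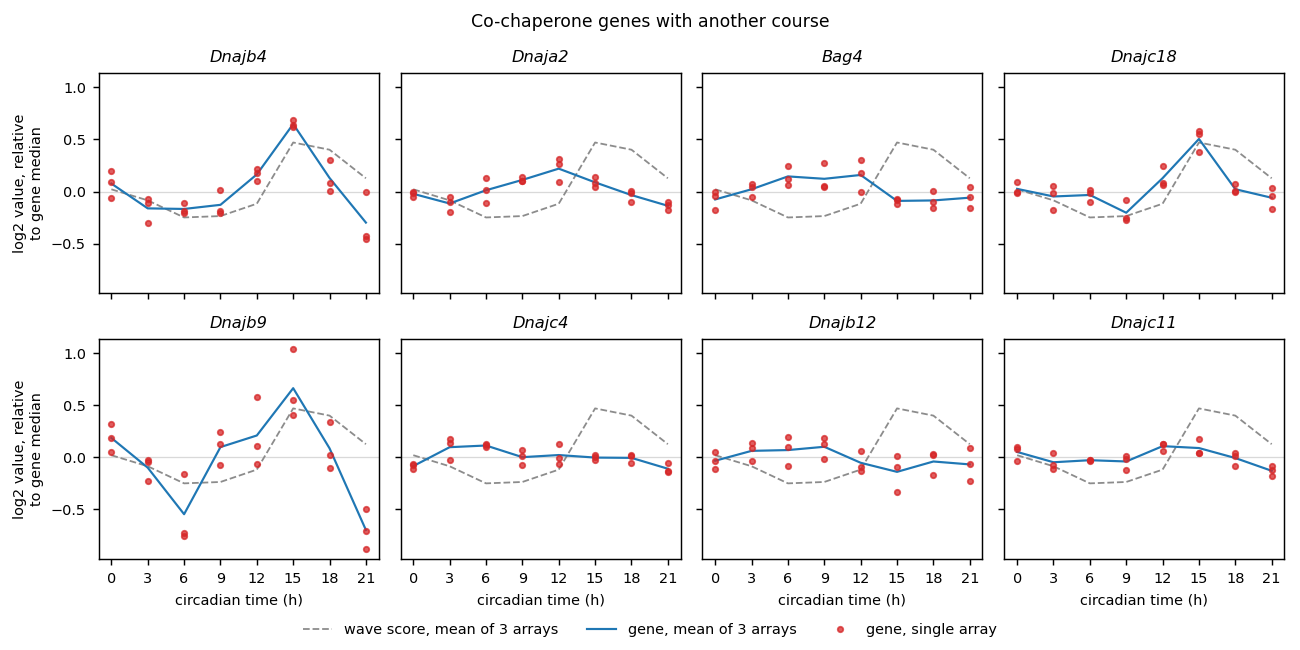
Log2 value relative to the gene's median against circadian time (h) for 8 genes that did not follow the wave; red points are single arrays, the blue line joins the means of 3 arrays, and the dashed line is the wave score. Dnajb4 and Dnajc18 are highest at CT15, Dnajc18 is back near 0 at CT18, Dnajb9 has 2 low times, CT06 and CT21, Dnaja2 is highest at CT12, and Bag4 is below 0 in the night when the wave is high.

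The rest of class C, 20 genes, had amplitudes of 0.0094 to 0.110 and no call in the 24 h fit, over the 8 times or between night and day. Dnajc13, which acts in endosomal sorting, rests on 15 probe sets, with an average amplitude of 0.11 ± 0.043 and a peak at 7.76 ± 1.49 h (adjusted p = 0.22), and 3 of the 15 were called alone. Dnajc24, which takes part in the diphthamide modification of a translation factor, peaked at 22.3 ± 1.16 h (adjusted p = 0.071). J proteins that act in or on mitochondria (Dnaja3, Dnajc11, Dnajc15, Dnajc19 and Dnajc30) gave 0 of 5 calls in the 24 h fit, with amplitudes of 0.014 to 0.091 and adjusted p from 0.234 to 0.970. J proteins known from testis (Dnajb3, Dnajb7, Dnajb8, Dnajb13, Dnajc5b and Dnajc5g) gave 0 of 6, with amplitudes of 0.0094 to 0.060, and none of the 6 fell in the upper brightness class (0). The 24 h fit called 13.8% of all genes, so 0 calls in sets this small are not particular to them.

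Of the 10 chaperonin genes 3 varied over the 8 times, against 10.9% of all genes. The genes were read on the same arrays, so the counts below are not independent of each other. All 8 core subunits were above 0 in the night minus day difference, by 0.032 to 0.26. Over all genes, 9802 of 19935 were above 0. Of the 8 core genes 4 were called higher at night, against 3.92% of all genes. The highest mean fell at CT15 in 7 of 8, against 12.8% of all genes, and at CT18 in Cct3. In the 24 h fit Cct5, Tcp1 and Cct3 were called, against 13.8% of all genes. Amplitudes ran from 0.037 in Cct2 to 0.16 in Cct5, which is 1.05-fold to 1.24-fold. Values of Cct5 were 0.054, 0.012 and -0.033 at CT00, -0.065, -0.033 and -0.11 at CT03, -0.046, -0.084 and -0.12 at CT06, and -0.14, -0.27 and -0.21 at CT09. They went on with -0.055, -0.012 and 0.066 at CT12, 0.074, 0.32 and 0.26 at CT15, 0.04, 0.22 and 0.21 at CT18, and 0.074, 0.048 and 0.015 at CT21. All 9 night arrays were above all 9 day arrays, CT12 overlapped both, and CT09 was lowest. Cct5 had an amplitude of 0.16 ± 0.026 with a peak at 17.9 ± 0.64 h (adjusted p = 0.000472), within 0.097 h of the wave, and a night minus day difference of 0.26 ± 0.035 (adjusted p = 6.78e-05). In single arrays Tcp1 had 0.0095, -0.028 and -0.0095 at CT00, -0.16, -0.045 and -0.25 at CT03, -0.071, -0.038 and -0.077 at CT06, and -0.12, -0.22 and 0.014 at CT09. Over the second part of the cycle it had 0.23, 0.18 and 0.032 at CT12, 0.06, 0.26 and 0.22 at CT15, 0.15, 0.14 and 0.20 at CT18, and 0.024, -0.19 and -0.30 at CT21. Tcp1 was up from CT12 to CT18 in every array and low at CT21 in 2 of 3. Its peak at 15.02 ± 0.86 h (amplitude 0.15 ± 0.034, adjusted p = 0.00863) left the window in 12 of the 24 fits that left out 1 array, with the 24 h call kept in all of them.

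Cct3 had a later fitted peak than Tcp1. Log2 values of Cct3 were 0.10, -0.035 and -0.066 at CT00, 0.031, 0.046 and 0.012 at CT03, -0.0075, -0.15 and -0.02 at CT06, and -0.11, -0.30 and -0.14 at CT09. Those of the subjective night were -0.22, -0.075 and -0.17 at CT12, 0.091, 0.36 and 0.12 at CT15, 0.072, 0.22 and 0.33 at CT18, and 0.08, -0.075 and 0.0075 at CT21. CT12 was still low in all 3 arrays, and CT15 and CT18 were above 0 in all 6. Cct3 had an amplitude of 0.14 ± 0.036 and a peak at 19.3 ± 1.01 h (adjusted p = 0.0302). Its call was lost without any of 5 arrays, with adjusted p of 0.0542 without CT06 replicate 2, 0.0632 without CT09 replicate 2, 0.0517 without CT09 replicate 3, 0.0653 without CT18 replicate 2, 0.075 without CT18 replicate 3. Cct7 was called in the night minus day contrast alone, at 0.17 ± 0.052 (adjusted p = 0.0446), a call lost in 14 of 24 fits that left out 1 array, at adjusted p of 0.0506 to 0.101. Cct6a and Cct8 peaked at 16.2 ± 1.22 h and 16.8 ± 1.25 h with amplitudes of 0.083 ± 0.026 and 0.072 ± 0.024 (adjusted p = 0.0957 and 0.105). Cct4 and Cct2 had the smallest amplitudes of the core, 0.056 ± 0.027 and 0.037 ± 0.021, with no call in the 24 h fit (adjusted p = 0.424 and 0.549). All 8 core genes fell in the upper brightness class. The 2 relatives outside the core, Cct6b, known from testis, and Cct8l1, fell in the lower class, and their night minus day differences were -0.03 ± 0.042 and -0.023 ± 0.044.

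**Figure D5:**
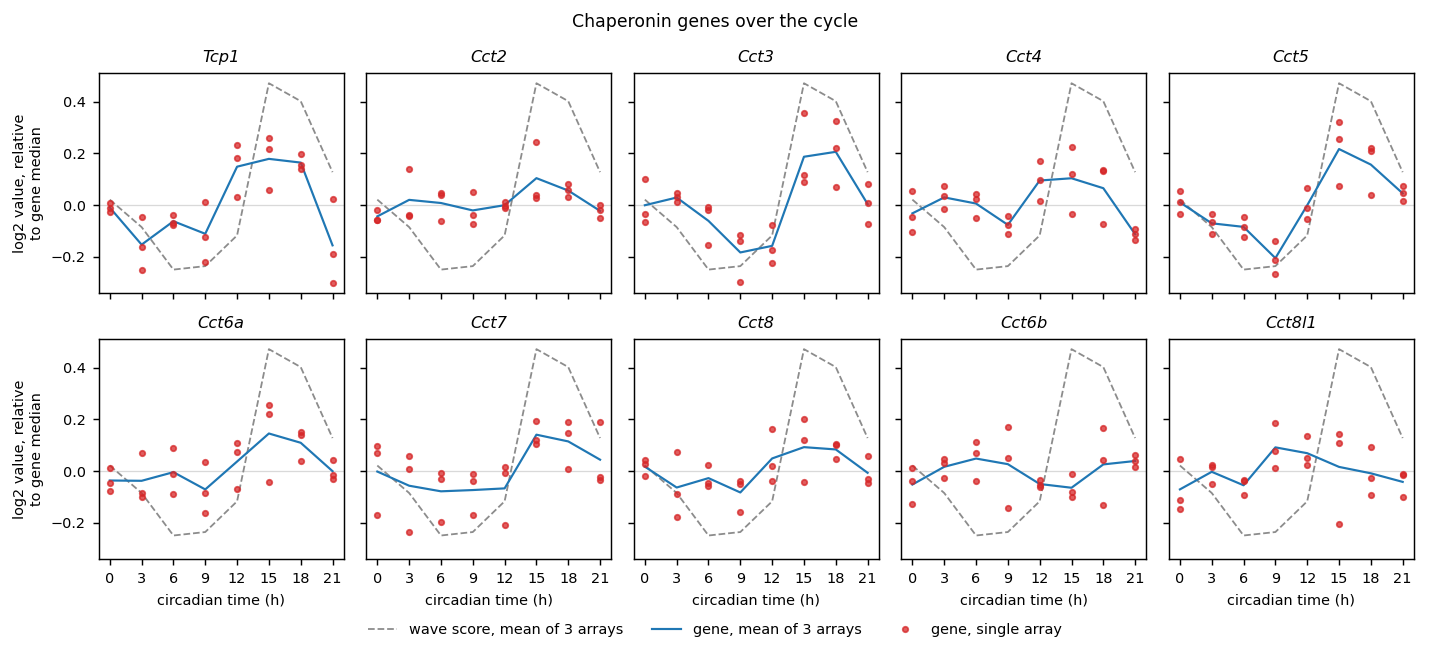
Log2 value relative to the gene's median against circadian time (h) for the 10 chaperonin genes; red points are single arrays, the blue line joins the means of 3 arrays, and the dashed line is the wave score, which is drawn on the same scale and swings more widely than any of them. The 8 core subunits are highest at CT15 or CT18, while Cct6b and Cct8l1 are not.

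The difference between each gene and the wave score was tested in the same 24 h terms. It was called in 65 of 68 genes, against 99.5% of all genes, and all 50 genes without a 24 h call were among the 65, as were 17143 of the 17177 such genes of the whole table. A gene that does not move differs from a moving score, so the call says nothing particular about these 50, and what it can show is which genes were not told apart from the wave. The 3 exceptions were Stip1 (adjusted p = 0.614), Bag3 (adjusted p = 0.28) and Ahsa2 (adjusted p = 0.0539), with amplitudes of the difference of 0.045, 0.082 and 0.11. The other 12 genes that followed the wave differed from it in size or time. Among all genes, 490 of the 550 that followed the wave differed from it too, and 60 did not, so such a difference is not particular to the 12. Of the 12, Ahsa1 (adjusted p = 0.0187) had a peak close to that of the wave and a smaller amplitude, and Fkbp4 (adjusted p = 0.00275) was later.

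The 8 times differed in 17 of 68 genes, against 10.9% of all genes, and Dnajc18 and Dnajb9 were the 2 of them with no 24 h call, against 2.21% of all genes. Of the 15 genes that followed the wave 13 were among the 17, and Dnajc3 and St13 were not (adjusted p = 0.0521 and 0.167). A 12 h component beside the 24 h cosine was called in 6 of 68, against 0.577% of all genes: Stip1 (12 h amplitude 0.25, adjusted p = 0.00424), Bag3 (0.27, adjusted p = 0.0451), Ahsa2 (0.20, adjusted p = 0.00831), Dnajb2 (0.14, adjusted p = 0.00769), Dnajb4 (0.24, adjusted p = 0.0404) and Dnajc18 (0.18, adjusted p = 0.0327). These courses were steep at CT15 and are shaped by few times: the count was 2 without the arrays of CT15 and 0 without those of CT21. It was 3 without any of CT03 replicate 2, CT09 replicate 2, CT15 replicate 2, CT15 replicate 3 or CT21 replicate 3.

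Other genes of the pathway were looked at for comparison. The 24 h fit called 13.8% of all genes, and 2.76% followed the wave, shares that stand beside each count in this paragraph. The gene of heat shock factor 1, Hsf1, was listed but was not among the genes tested. Of 24 further genes (partners of HSP70 and HSP90, other heat shock factors and other HSP70 genes), 8 were called in the 24 h fit and 4 followed the wave, the partners Cacybp, Chordc1 and Ppid and the HSP70 gene Hspa2. Chordc1, an HSP90 partner, peaked at 16.7 ± 0.69 h with an amplitude of 0.45 ± 0.082 (adjusted p = 0.00101), and Cacybp and Ppid at 17.1 ± 0.63 h and 18.5 ± 0.75 h. Fkbp5, the glucocorticoid-induced relative of Fkbp4, peaked earlier than it, at 14.4 ± 0.35 h with an amplitude of 0.71 ± 0.065 (adjusted p = 8.7e-08), and Sgtb peaked by day at 8.22 ± 0.60 h. The heat shock factor Hsf4 and the HSP90 partner Unc45a were the other 2, at 13.8 ± 0.98 h and 22.8 ± 1.04 h. Of 8 partners of the chaperonin, which bring it unfolded actin and tubulin or regulate it, 2 were called, Pdcl3 at 0.88 ± 0.92 h and Pfdn2 at 13.5 ± 0.97 h, and 0 followed the wave. Of 6 genes of the endoplasmic reticulum HSP70 system 2 were called, Hyou1 at 20.2 ± 0.99 h, inside the window, and Sdf2l1 at 21.8 ± 0.89 h. Hspa5, the reticulum's own HSP70, missed the 24 h call (adjusted p = 0.0825), with a fitted peak at 19.3 ± 1.19 h. It was higher at night by 0.32 ± 0.082 (adjusted p = 0.0165). Of the 6, 3 varied over the 8 times, against 10.9% of all genes, and 2 were higher at night, Hspa5 and Hyou1, against 3.92%. Of 6 genes of the mitochondrial HSP70 system 3 were called, and all 3 peaked by day: Grpel2 at 6.56 ± 0.53 h, Timm44 at 7.89 ± 1.06 h and Grpel1 at 10.1 ± 0.67 h.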

How the data were processed

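Liver RNA was hybridized to 24 Affymetrix Mouse Gene 1.0 ST arrays, 3 per circadian time, per the labels' protocols. The deposited values were taken as log2 values: the authors' table gives each of 28815 probe sets relative to its own median over the 24 arrays. How the authors corrected background and normalized, and the log base, was not given in the sources used here. Centring removes the level of a gene. Arrays have no depth, so the number of arrays sets the precision.

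Symbols came from the platform annotation (21780 probe sets with 1 symbol, 1605 with several, 5430 not listed) and probe sets were averaged per gene. Models were fitted in limma (version 3.58.1, R version 4.3.3) to all 19935 genes without a filter, with moderated variances and Benjamini-Hochberg adjustment at 0.05: a 24 h cosine and sine, equality of the 8 times, a night minus day contrast, a 12 h component, and the 24 h terms of gene minus wave score. The symbol rule for the members, the gene lists and the wave genes were chosen with earlier results of these data known. Values per array are given for the 12 called genes of largest amplitude inside the window, called chaperonin and HSP90 co-chaperone genes, up to 8 called genes outside the window, the 5 smallest p over the 8 times among genes without a 24 h call and the 4 smallest p of the difference from the wave among genes called in neither. Promoters are from RefSeq. Alternatives concerned replicates, times, normalization, weights, moderation, probe sets, filter, window and wave genes.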

Additional observations from a re-analysis of the deposited data

How the results depend on the processing

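Across 42 to 46 alternatives per result, the counts of genes called in the 24 h fit, higher at night and differing from the wave stayed within 1.5 times their values. Leaving out 1 array gave 15 to 20 genes called in the 24 h fit, 12 to 18 following the wave, 64 to 66 differing from it, 16 to 20 varying over the 8 times, 17 to 21 higher at night, 1 to 3 lower and 3 to 8 with a 12 h component. The same 9 genes followed the wave in every such fit: Ahsa1, Ahsa2, Bag3, Cct5, Dnajb1, Dnajb2, Dnajc3, Fkbp4 and Stip1. Leaving out all arrays of 1 time gave 10 to 18 genes following the wave. Of the 9, 7 followed it in every fit of that kind, and Ahsa1 and Dnajc3 did not. The lower count was 1 without any of CT03 replicate 1 or 3, CT06 replicate 2, CT09 replicate 1 or 2, CT15 replicate 2, CT18 replicate 2 or CT21 replicate 3, and 3 without CT15 replicate 1. Leaving out the 4 farthest arrays left 8 genes following the wave, without Ahsa1, Cct3, Dnaja1, Dnajb1, Dnajb11, St13 and Tcp1, 0 lower and 3 with a 12 h component. Array weights gave 27 genes varying over the 8 times and 13 with a 12 h component. The 12 h count was 3 with quantile normalization, 3 without moderation, 10 with a small nucleolar RNA covariate, 2 without CT15 and 0 without CT21. The lower count was 1 without the least variable genes, 1 without CT00, CT03 or CT21, and 0 without CT06 or CT18. The cause of these changes was not tested. A window of 2 h gave 11 followers and one of 6 h gave 16, and a wave taken from Hsp90aa1 alone gave 12. Replicate numbers were not taken to pair the animals, because the labels do not say that they do. Same-numbered arrays of different times had a median correlation of 0.11 in their deviations (-0.40 to 0.50), those with different numbers -0.062. The correlation was over 0.1 in 45 of 84 same-numbered pairs, against 45 of 168 others, and 15 of 24 arrays were closest to their own number. Arrays of the same number were thus somewhat more alike, and the cause was not tested. Over all genes, a replicate block raised the 24 h calls from 2758 to 2984. A replicate block gave 21 genes called in the 24 h fit, 18 following the wave (Cct7, Dnajc25 and Ptges3 in addition), 22 higher and 3 lower at night, 19 varying over the 8 times and 8 with a 12 h component. With 3 arrays per time and 1 cycle, recurrence could not be tested.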
